A study of Mus musculus with 6 samples.

Results

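The enzymes of glycolysis and of the pentose phosphate pathway were followed through 34 named genes, chosen by symbol and read in pathway order from glucose transport to lactate export. All 34 were among the 54532 genes of the deposited count table, where they filled 35 entries because Aldoa was listed 2 times. Expression was measured by RNA sequencing in cancer cells of 2208L, a mammary tumour of the mouse carried in Balb/c animals, with no treatment in either group. For the CTC group (3 libraries), circulating tumour cells were taken from blood and propagated. For the PT group (3 libraries), tumour cells were enriched from the dissociated primary tumour, and equal replicate numbers mark matched mice. Propagation is named for CTC alone, so the effects of handling and of origin cannot be told apart. Strain, tumour and the absence of treatment were shared by all libraries, and the age of the mice is not given in the sources used here.

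Glycolysis splits glucose into pyruvate in the cytosol, and lactate dehydrogenase turns pyruvate into lactate that monocarboxylate transporters export. The pentose phosphate pathway branches off at glucose 6-phosphate and yields NADPH and ribose phosphate. Tumour cells often make lactate even where oxygen is present, and several glycolytic genes are known targets of the hypoxia-inducible factor HIF-1 and of MYC, while NRF2 is known to act on genes of the pentose phosphate branch.

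Values in CPM are counts relative to library totals, with TMM factors. Library totals lay between 23845953 and 27897320 counts. The upper limit where a gene had none, 3 counts, corresponded to at most 0.126 CPM when TMM factors were left out. This limit covers counting error only, and no molecular identifiers are named for these reads. Markers of tumour epithelium (Krt8, Krt18, Krt19, Epcam and Cdh1) together reached 1968 to 4857 CPM. Of these, Krt19 had no count in CTC replicate 3 or PT replicate 3 and from 129 to 2452 counts in the other libraries. The 8 leukocyte markers summed to at most 4.61 CPM, and 3 of them had no count in any library. The 4 endothelial markers reached at most 1.88 CPM and the 6 erythroid markers at most 0.666 CPM. The 6 skeletal muscle markers summed to between 1.42 and 3.06 CPM. Fibroblast markers summed to between 8.898 and 164.7 CPM, with the highest sum in CTC replicate 3, as for the adipocyte markers (349 CPM there and at most 2.44 CPM elsewhere). Few genes carried these sums. In CTC replicate 3, Fabp4 was at 346 CPM, Col3a1 at 124 CPM and Pdgfra at 38.6 CPM. Col1a1 was highest in PT replicate 3, Col1a2 and Dcn in PT replicate 1 and Pdgfrb in CTC replicate 2. Lum and Lep had no count in any library, and Adipoq had none in CTC replicate 3.

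No member passed the test between CTC and PT. By edgeR's quasi-likelihood test with Benjamini-Hochberg adjustment over the 13874 genes tested, 0% of all genes and 0 of the 32 tested members were called. The smallest adjusted p of a member was 0.726. Every other member's adjusted p was at or above that value. At an unadjusted p under 0.05 stood 919 genes (6.62%), of which 3.31% of all genes were lower and 3.32% higher in CTC, and 7 members, all lower in CTC. DESeq2 called 91 genes (0.631%), DESeq2 with the mouse as a replicate block 253 (1.87%) and limma-voom 0, and none of these calls was a member. Pdk4, an inhibitory kinase of pyruvate dehydrogenase, had no count in any library, and Slc2a3, a glucose transporter of neurons, had at most 7, so both were left out by the filter on low counts.

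In 7 members every CTC library nevertheless lay below every PT library. These were Gpi1, Pfkp, Aldoa, Aldoc, Tpi1, Eno2 and Ldha, 21.9% of the 32 tested members, where 6.16% of all genes tested lay apart in that direction. Only Pfkfb3 lay apart in the other direction, where the share of all genes was 5.95%. Over the 32 members the log2 fold change (CTC minus PT) was below 0 in 21 and above 0 in 11, with a median of -0.23, while 45.9% of all genes tested were below 0 and their median was 0.053. Without PT replicate 1 the members' median was 0.012, and without replicate 1 of both groups it was 0.043. With 1 library left out, 7 to 11 members lay below PT in every CTC library, where 7.58% to 14.3% of all genes did. With both libraries of 1 mouse left out 7 to 13 did, where 12.9% to 22.9% of all genes did. Members that lie apart with all libraries stay apart in a subset, so these counts could hardly fall below 7. Without replicate 1 of both groups, 7 lay below and 5 above PT, where 12.9% and 12.4% of all genes did. In bulk RNA, fewer cells of a type and less RNA per cell cannot be told apart.

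**Figure D1:**
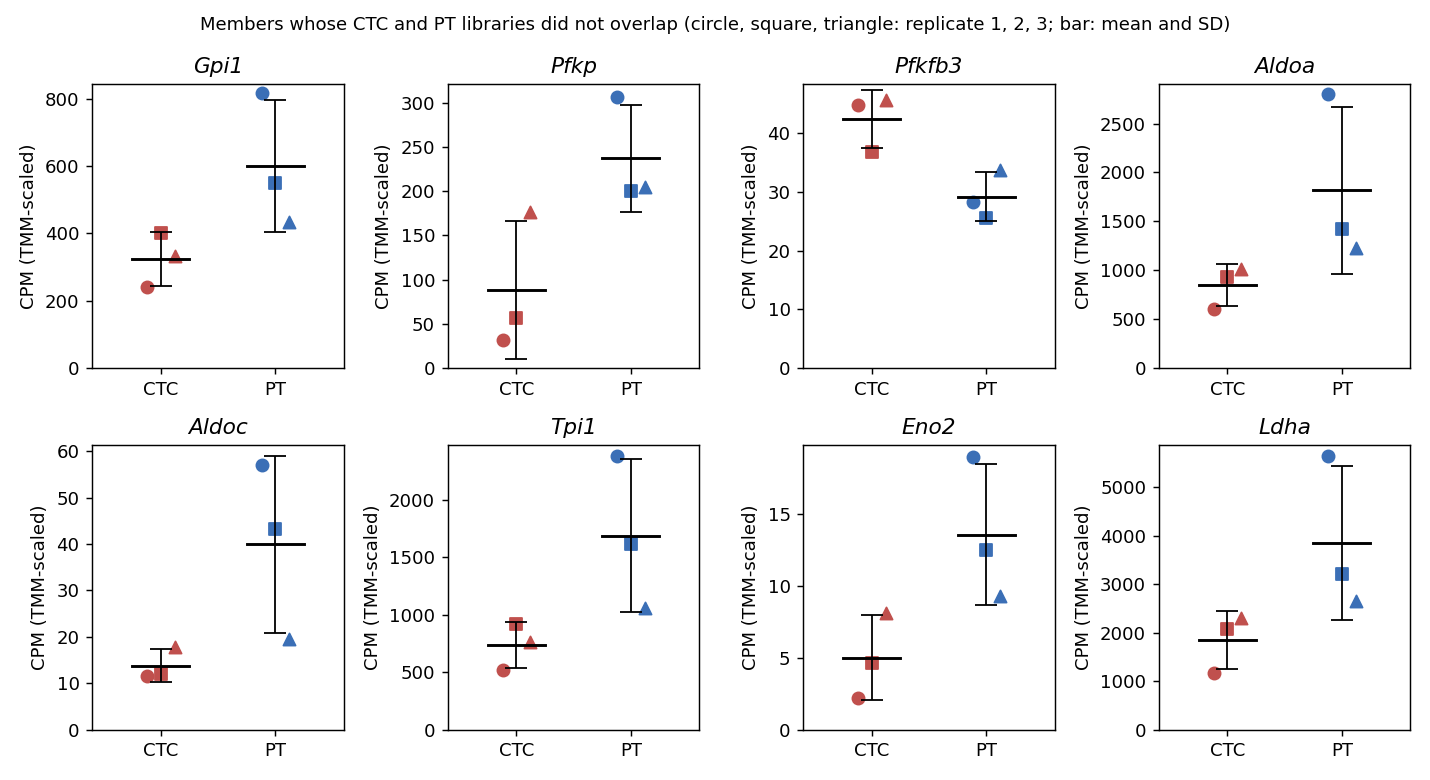
Expression in CPM (TMM-scaled) of the 8 members whose libraries did not overlap, by group. Points are single libraries, with circle, square and triangle for replicates 1, 2 and 3, and bars are means with SD. PT replicate 1 is the highest library for each of the 7 members that were lower in CTC.

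A sequence view of the start sites is given for the 3 of these 8 members whose promoter window held the core letters ACGTG, since HIF-1 is known to bind ACGTG and GCGTG and MYC is known to bind CACGTG. The windows come from RefSeq on GRCm38.p6 and run from 250 bases before to 50 after the start site, and capitals mark ACGTG or GCGTG on either strand, including copies inside CACGTG. The windows were those nearest to the start of the deposited gene. The Ldha window lies at chr7:46845554-46845853 on the plus strand (its start site lies 4329 bases inside the deposited gene), the Aldoc window at chr11:78322823-78323122 on the plus strand and the Pfkfb3 window at chr2:11553880-11554179 on the minus strand.
Ldha: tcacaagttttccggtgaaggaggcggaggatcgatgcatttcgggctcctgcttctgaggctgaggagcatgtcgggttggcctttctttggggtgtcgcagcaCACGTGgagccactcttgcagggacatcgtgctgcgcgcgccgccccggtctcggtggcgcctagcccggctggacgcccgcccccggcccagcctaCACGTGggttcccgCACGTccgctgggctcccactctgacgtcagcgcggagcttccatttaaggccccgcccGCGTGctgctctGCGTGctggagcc
Aldoc: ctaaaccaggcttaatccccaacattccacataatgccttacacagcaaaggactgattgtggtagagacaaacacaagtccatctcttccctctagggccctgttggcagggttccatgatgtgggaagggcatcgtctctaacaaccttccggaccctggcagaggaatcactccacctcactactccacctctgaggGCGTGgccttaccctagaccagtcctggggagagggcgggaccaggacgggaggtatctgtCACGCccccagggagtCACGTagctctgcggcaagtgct
Pfkfb3: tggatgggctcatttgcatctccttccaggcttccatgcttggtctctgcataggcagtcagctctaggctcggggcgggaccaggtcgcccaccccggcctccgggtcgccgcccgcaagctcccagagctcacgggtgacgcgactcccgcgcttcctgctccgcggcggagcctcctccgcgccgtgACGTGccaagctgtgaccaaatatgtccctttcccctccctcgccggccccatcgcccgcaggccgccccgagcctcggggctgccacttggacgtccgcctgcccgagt

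Counted on both strands, the Ldha window held ACGTG 5 times and GCGTG 2 times, and 2 copies of CACGTG, which reads alike on both strands, were among the former. The Aldoc window held ACGTG 1 time and GCGTG 2 times, and the Pfkfb3 window ACGTG 1 time. Of the 33 members with a window, 14 (42.4%) held ACGTG, where 25.8% of the 9918 tested genes with such a window and 19.6% of all 32851 windows did. GCGTG was in 21 members (63.6%), against 52.4% and 32.4%. CACGTG was in 4 members (12.1%), against 10.2% and 7.15%. The letters TGACNNNGC, known from NRF2 sites, were in 2 members (6.06%), against 14.8% and 12.4%. ACGTG was found in windows of members that lay apart and of members that overlapped, such as Hk2, Pgk1 and Slc16a1, and Tpi1, Aldoa, Gpi1 and Eno2 had neither ACGTG nor GCGTG in theirs.

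For glucose entry and its first phosphorylation the groups overlapped. Slc2a1, which encodes the glucose transporter GLUT1, had 109.4, 109.2 and 202 CPM in CTC replicates 1, 2 and 3 and 217, 125 and 111 CPM in PT replicates 1, 2 and 3. One library of each group stood above the rest, and the groups overlapped. Hk1, the hexokinase of most tissues, was at 168, 182 and 112 CPM in CTC and 195.7, 159 and 112 CPM in PT. Hk2, the hexokinase often induced in tumours, was at 53.4, 45.9 and 54.6 CPM in CTC and ranged from 25.8 CPM in PT replicate 1 to 83.8 CPM in PT replicate 3. The log2 fold changes of Slc2a1, Hk1 and Hk2 were -0.11, -0.012 and 0.064, and each took either sign when 1 library was left out.

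The steps from glucose 6-phosphate to triose phosphate held 5 of the 7 members that lay below PT. Gpi1, which converts glucose 6-phosphate to fructose 6-phosphate, was at 240.4, 401 and 333 CPM in CTC and 816, 550.5 and 435 CPM in PT. The fitted log2 ratio was -0.89 (SE 0.34, 95% interval -1.67 to -0.11). CTC replicate 1 was lowest and PT replicate 1 highest, and the nearest libraries were CTC replicate 2 and PT replicate 3. Aldoa, the main aldolase of muscle and tumours, was at 607, 933 and 1016 CPM in CTC and 2798, 1421 and 1233 CPM in PT, with a log2 ratio of -1.09 (SE 0.40, 95% interval -2.02 to -0.17). Its relative Aldoc, an aldolase of brain, was at 11.6, 11.99 and 17.8 CPM in CTC and 56.97, 43.3 and 19.4 CPM in PT (-1.53, SE 0.44). The gap between the nearest libraries of Aldoc was small, 17.8 against 19.4 CPM. Tpi1, triosephosphate isomerase, was at 523, 919.9 and 767 CPM in CTC and 2385, 1618 and 1062 CPM in PT (-1.20, SE 0.38, 95% interval -2.09 to -0.31). All 3 matched mice had less Tpi1 in CTC, by log2 differences of -2.19, -0.81 and -0.47 for mice 1, 2 and 3. Without replicate 1 of both groups the log2 ratios were -0.41 for Gpi1, -0.43 for Aldoa, -1.05 for Aldoc and -0.65 for Tpi1, and without PT replicate 1 alone that of Aldoa was -0.63.

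Phosphofructokinase, the committed step of glycolysis, has 3 genes, of which only Pfkp lay apart. Pfkp, the platelet form, had 32.0, 56.5 and 177 CPM in CTC and 307, 200.4 and 204 CPM in PT, with a log2 ratio of -1.42 (SE 0.60, 95% interval -2.80 to -0.04). CTC replicate 3 lay close to the PT libraries and CTC replicate 1 far below them, and the ratio was -2.43 without CTC replicate 3, -1.03 without CTC replicate 1 and -0.78 without replicate 1 of both groups. Pfkl, the liver form, had 103, 279.6 and 279.2 CPM in CTC and 633, 432 and 221 CPM in PT, so the groups overlapped (-0.96, SE 0.50). Without replicate 1 of both groups its value was -0.20. Pfkm, the muscle form, was at 58.5, 100.8 and 59.8 CPM in CTC and 74.3, 71.0 and 46.6 CPM in PT (0.19, SE 0.32).

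Pfkfb3 makes the activator fructose 2,6-bisphosphate, which drives phosphofructokinase. It had 44.7, 36.7 and 45.6 CPM in CTC and 28.3, 25.5 and 33.6 CPM in PT, higher in each CTC library. The log2 ratio was 0.54 (SE 0.27, 95% interval -0.08 to 1.15), and the matched mice differed by 0.66, 0.52 and 0.44. Its relatives Pfkfb2 and Pfkfb4 stayed between 5.57 and 19.0 CPM in every library and overlapped.

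**Figure D2:**
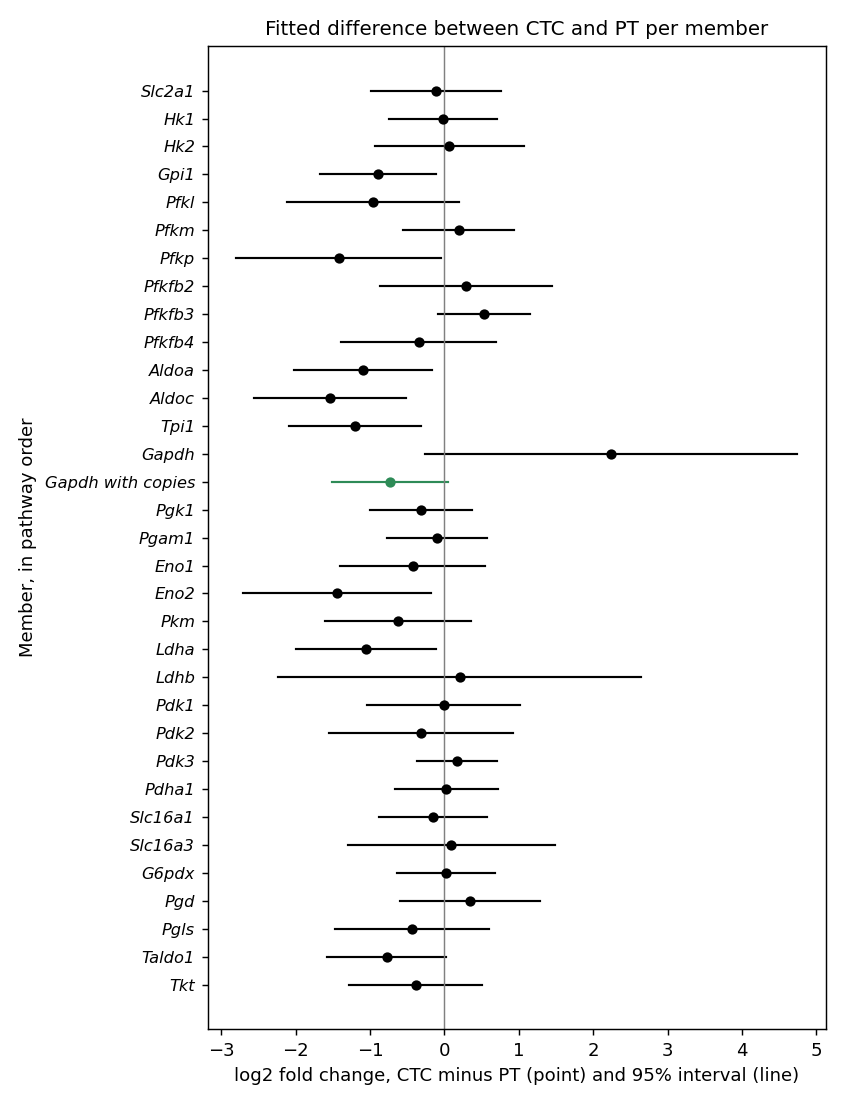
Fitted log2 fold change (CTC minus PT, point) with its 95% interval (line) for each tested member in pathway order, and in green for Gapdh summed with its copies. Points left of 0 are lower in CTC, and the Gapdh entry alone (2.24) and the sum (-0.73) lie on opposite sides.

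The order of mean levels per gene length differed between the groups, but single libraries did not all follow it. In CTC the mean was highest for Pkm (718 CPM per kilobase), followed by Pgk1 (653), Ldha (559), Pgam1 (461), Aldoa (293), Eno1 (272) and Tpi1 (268). In PT it was highest for Ldha (1160.3), followed by Pkm (1105), Pgk1 (813), Aldoa (624), Tpi1 (613), Pgam1 (493) and Eno1 (365). In PT replicate 1, Pkm (1776) lay above Ldha (1706). In CTC replicate 3, Ldha (697) lay above Pgk1 (657) and Pkm (587). Neighbours in these orders were not tested against each other. The orders use single entries and leave out Gapdh. Counts of Gapdh with its near-identical copies lay mostly on the pseudogene Gm13394. That entry had 1092 CPM per kilobase in CTC and 1918 in PT, above each gene named in these orders. This rank depends on the length used, 1000 bases for Gm13394 against 3310 for Ldha and 5001 for Pkm. In mean CPM not divided by length, Gm13394 (1092 in CTC, 1918 in PT) lay below Pkm (3590 and 5525) and Ldha (1852 and 3841). The Eno1 entry held 60.95% of the counts of Eno1 with its copies. Pkm, pyruvate kinase, was at 3196, 4637 and 2938 CPM in CTC and 8883, 4180.2 and 3510.2 CPM in PT. PT replicate 1 stood alone, the other PT libraries lay inside the CTC range, and the log2 fold change of -0.62 (SE 0.42) was -0.094 without that library. Pgk1, which makes the first ATP of the pathway, was at 1252, 1671 and 1474 CPM in CTC and 2338, 1645 and 1490.1 CPM in PT (-0.32, SE 0.30). Pgam1, the mutase that follows it, was at 659.8, 955 and 918 CPM in CTC and 1039, 716 and 951 CPM in PT (-0.096, SE 0.29). Eno1, the main enolase, was at 1435, 1884 and 1063 CPM in CTC and 2988, 1814 and 1082 CPM in PT (-0.43, SE 0.42). All 4 overlapped, and without PT replicate 1 the values of Pgk1, Pgam1 and Eno1 were -0.091, 0.022 and 0.019. Eno2, the enolase of neurons, was low but lay apart, at 2.23, 4.62 and 8.13 CPM in CTC and 18.95, 12.5 and 9.28 CPM in PT (-1.44, SE 0.55). Without replicate 1 of both groups its ratio was -0.75, and without replicate 3 of both groups -2.20.

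Gapdh, glyceraldehyde 3-phosphate dehydrogenase, was far below its neighbours in the pathway, at 8.72, 222 and 16.9 CPM in CTC and 15.2, 16.2 and 21.0 CPM in PT. Its log2 fold change of 2.24 (SE 1.08) rested on CTC replicate 2, which had 5340 counts where the other libraries had 246 to 506, and was -0.45 without it. Gapdh has many near-identical processed copies in the mouse genome. Of the 1943 windows of 100 bases in its coding transcripts, 1032 (53.1%) were also in transcripts of another annotated gene (GENCODE M21), and 82 pseudogenes in the count table shared at least 1. One of them, Gm13394 on chromosome 2 (28933610 to 28934609, GRCm38, minus strand), was named after its values were seen. It had 25216, 33574 and 25172 counts in CTC and 62175, 43257 and 36701 counts in PT. In CPM it was at 894, 1398 and 983 in CTC and 2380.3, 1854 and 1521 in PT, lower in each CTC library (-0.81, SE 0.31).

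Summed with its 82 copies, Gapdh was at 952, 1703 and 1059 CPM in CTC and 2542, 1994 and 1630.1 CPM in PT. The Gapdh entry held 2.96% of those counts over all libraries, but 13.1% in CTC replicate 2 and from 0.600% to 1.596% in the other 5, and 0.952% over those 5 together. CTC replicate 2 and PT replicate 3 overlapped slightly, and the log2 fold change was -0.73 (SE 0.34, 95% interval -1.51 to 0.050, edgeR adjusted p = 0.728). The sign was thus opposite to that of the Gapdh entry alone. Eno1 held 60.95% of the counts of its own family, the rest lying on Eno1b, Gm4735 and Gm5855, and the summed log2 fold change of -0.42 was close to its own -0.43. For the 7 other members summed with copies (Gpi1, Tpi1, Pgk1, Pgam1, Pkm, Ldha and Ldhb) the own entry held from 98.2% to 99.8%. Pfkfb2 and Pfkm shared 21.1% and 7.43% of their windows with 1 overlapping gene each, which had at most 10 counts in a library. Pgk1 shared 67.0% of its windows with other genes, Pgam1 39.7% and Eno1 39.5%. How reads with several matches were counted is not given in the sources used here. The single entries of Gapdh, Eno1, Pgk1, Pgam1 and their copies are therefore uncertain. Reads left out of every entry would also be missing from the sums.

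**Figure D3:**
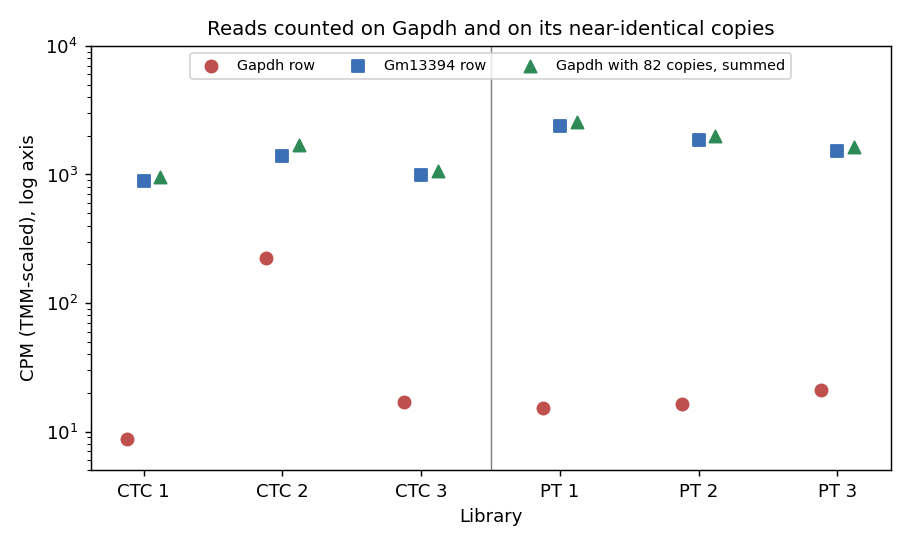
CPM (TMM-scaled, log axis) counted in each library on the Gapdh entry (circles), on the pseudogene Gm13394 (squares) and on Gapdh with all 82 copies (triangles). The Gapdh entry stays between 8.72 and 21.0 CPM except in CTC replicate 2 (222 CPM), while Gm13394 makes up most of the sum in each library.

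Ldha, which makes lactate from pyruvate, lay below PT in all CTC libraries. It was at 1177, 2072 and 2306 CPM in CTC and 5648, 3213 and 2661 CPM in PT. The log2 ratio was -1.05 (SE 0.41, 95% interval -1.996 to -0.11). Without replicate 1 of both groups it was -0.41, and without PT replicate 1 alone -0.66. Ldhb, the form that prevails in heart, was at most 12.9 CPM and had 5 counts (0.207 CPM) in PT replicate 3. Slc16a1, the monocarboxylate transporter MCT1, was at 158, 253 and 180.0 CPM in CTC and 152, 259.5 and 246 CPM in PT, and Slc16a3, the hypoxia-linked transporter MCT4, had at most 32 counts per library. Per gene length, averaged over the 6 libraries, the level of Slc16a1 was 47.0 CPM per kilobase and that of Slc16a3 was 0.167.

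At the entry of pyruvate into mitochondria the groups overlapped for every member. Pdha1, a subunit of pyruvate dehydrogenase, was at 175, 225 and 143 CPM in CTC and 129, 215 and 188 CPM in PT. Of the kinases that inhibit it, Pdk3 was the most abundant, at 72.2, 81.8 and 72.04 CPM in CTC and 74.2, 58.8 and 68.8 CPM in PT. Pdk3 made up 85.2% ± 6.36 of the counts per gene length of the 4 kinase genes in CTC and 82.1% ± 2.88 in PT (SD, n = 3 each). Pdk1, a known HIF-1 target, was at 10.2 CPM in CTC replicate 1 and between 22.6 and 33.8 CPM in the other 5 libraries. Pdk2 stayed between 4.04 and 13.4 CPM.

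The 5 pentose phosphate members showed no separation. G6pdx, the NADPH-making first step, was at 203, 353 and 255 CPM in CTC and 293, 267 and 241 CPM in PT (log2 ratio 0.018, which was between -0.040 and 0.047 in the alternatives that kept all libraries). Pgd, the second NADPH-making enzyme, was at 261, 399 and 243 CPM in CTC and 371, 204 and 138 CPM in PT (0.34, SE 0.41). CTC replicate 2 was the highest library for both. The non-oxidative enzyme Taldo1, transaldolase, was at 161, 224 and 170.2 CPM in CTC and 426, 333 and 190.7 CPM in PT, lower in CTC in each matched mouse (-0.77, SE 0.35). Tkt, transketolase, and Pgls, which opens the lactone made by G6pdx, had values of -0.39 and -0.43 and overlapped.

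For steps with several members, each was compared as its share of the counts per gene length of the member genes of that step, which does not depend on library scaling. Other isozymes of a step are not in these shares unless stated. Over 16 shares the two-sided exact permutation test cannot go below p = 0.1 with 3 against 3 libraries, and the smallest Benjamini-Hochberg adjusted p was 0.686. Pfkm held 49.5%, 39.6% and 24.5% of the 3 phosphofructokinase genes in CTC and 15.9%, 21.1% and 22.4% in PT, higher in each CTC library (exact p = 0.1). Its mean share was 37.9% ± 12.6 in CTC and 19.8% ± 3.44 in PT (SD, n = 3 each). Pfkl was the largest share in 5 libraries and Pfkm in CTC replicate 1. This order depends on the gene length used. In counts not divided by length, Pfkl led in every library, with 2915 counts against 1650 for Pfkm in CTC replicate 1. Of Pfkfb2, Pfkfb3 and Pfkfb4 together, Pfkfb3 held 57.6%, 61.6% and 66.0% in CTC and 42.2%, 52.7% and 58.7% in PT, with overlap (exact p = 0.2). With Pfkfb1 added these shares were 51.8%, 48.5% and 58.8% in CTC and 38.8%, 39.1% and 50.3% in PT, which also overlapped. Hk1 held from 48.2% in PT replicate 3 to 84.1% in PT replicate 1 of Hk1 and Hk2 together, a wider spread within PT than between the group means (67.1% and 69.0%). Ldha held 98.8%, 99.5% and 98.9% of Ldha and Ldhb together in CTC and 99.5%, 99.5% and 99.98% in PT, lower in each CTC library by a small margin (exact p = 0.1). Slc2a1, Aldoa, Eno1 and Slc16a1 held from 97.4% to 100% against the 1 other member of their step. With Eno3 added, Eno1 held 64.7%, 92.9% and 98.4% of enolase in CTC and 97.4%, 88.4% and 98.2% in PT. With 9 other SLC2 transporter genes added, Slc2a1 held from 87.3% to 93.4%. With Slc16a7 and Slc16a8 added, Slc16a1 held from 97.1% to 98.1% in CTC and from 98.2% to 99.2% in PT (exact p = 0.1, not adjusted). These wider shares were added after the data were seen.

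**Figure D4:**
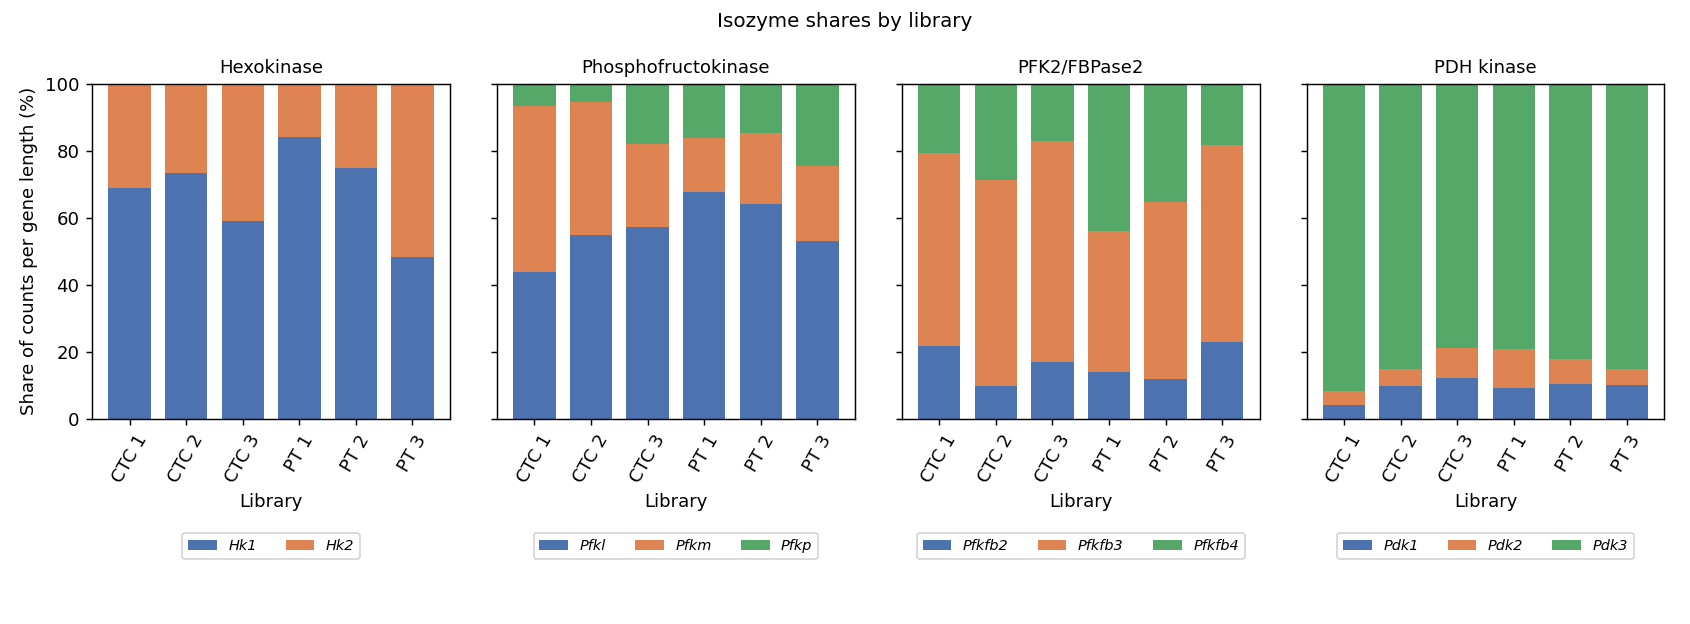
Share (%) of each member in the counts per gene length of the member genes of its step, by library, for hexokinase, phosphofructokinase, the PFKFB enzymes and the pyruvate dehydrogenase kinases. Pfkm takes 24.5% to 49.5% in CTC and 15.9% to 22.4% in PT.

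Mouse 1 gave both extremes among the libraries. The 34 genes took 1.12%, 1.63% and 1.41% of all counts in CTC and 2.93%, 1.77% and 1.49% in PT. PT replicate 1 was the highest of the 6 libraries for 21 of the 32 members (65.6%), where it was highest for 20.4% of all genes tested. CTC replicate 1 was the lowest for 16 members (50%), against 22.9% of all genes. In the other direction, PT replicate 1 was lowest for 3 members, against 23.1% of all genes, and CTC replicate 1 was highest for 1, against 24.6%. The other 4 libraries were highest for 1 to 6 members each, against 12.6% to 14.7% of all genes. The median deviation of the members from their mean over the libraries was 0.73 on the log2 scale in PT replicate 1 and -0.38 in CTC replicate 1, and lay between -0.14 and 0.11 in the other 4. For all genes tested it lay between -0.03 and 0.04. Differences within matched mice were largest in mouse 1 for each of the 7 members that lay below PT. For Ldha they were -2.26, -0.63 and -0.21 in mice 1, 2 and 3, for Aldoa -2.20, -0.61 and -0.28, and for Gpi1 -1.76, -0.46 and -0.39. Lower values in all 3 mice were found for 8 of the 32 members, against 15.3% of all genes.

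**Figure D5:**
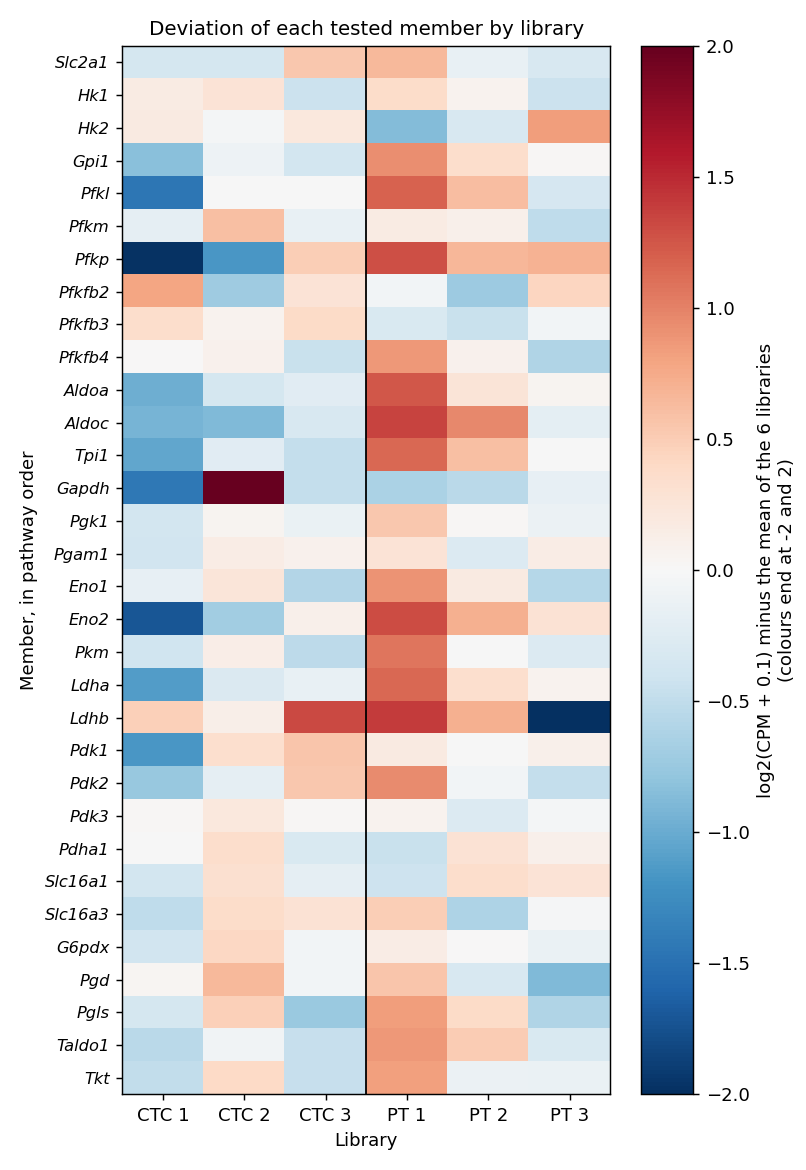
Deviation of each tested member from its mean over the 6 libraries, as log2(CPM + 0.1), with members in pathway order and libraries in columns. PT replicate 1 is the highest library for 21 of 32 members and CTC replicate 1 the lowest for 16.

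The median of genes known to be induced by low oxygen was also highest in PT replicate 1 and lowest in CTC replicate 1, but single genes of the list differed. The 12 tested genes of that kind which are no glycolytic enzymes had a median deviation of 0.61 in PT replicate 1 and -0.52 in CTC replicate 1, and between -0.19 and 0.31 elsewhere. PT replicate 1 was the highest library for 5 of the 12 and the lowest for 3 (Vegfa, Kdm3a and Mxi1), while CTC replicate 1 was the lowest for 4 and the highest for 2 (Ndrg1 and Bhlhe40). Their summed level, over the 13 listed genes, was 739, 701 and 666 CPM in CTC and 972, 915 and 561 CPM in PT. Of these 12, 9 had values below 0, their median log2 ratio was -0.25, and none passed. Car9, the carbonic anhydrase known as a marker of hypoxia, was at 70.3 CPM in PT replicate 1 and between 4.49 and 5.64 CPM in the other 5 libraries. Egln3, an oxygen sensor that HIF induces and that was listed with the regulators, was at 2.16, 8.74 and 30.1 CPM in CTC and 52.4, 86.8 and 30.3 CPM in PT. Its log2 ratio was -2.05, and of the tests run only DESeq2 with the block for mouse called it (adjusted p = 0.0112), while edgeR, edgeR with that block, DESeq2 without it and limma-voom did not. The part of oxygen in the members' values was not tested. The 6 muscle markers together never exceeded 3.06 CPM. The sums of fibroblast and adipocyte markers were highest in CTC replicate 3, carried there mostly by Col3a1 and Fabp4. That library lay at -0.14 for the members. The fibroblast sum was lowest in CTC replicate 1 (8.90 CPM) and, within PT, highest in PT replicate 1 (75.8 CPM). The members' median was also lowest and highest in these libraries. The adipocyte sum was 0.319 CPM in CTC replicate 1 and 0.881 CPM in PT replicate 1. The part of other cell types in the members' values was not tested.

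Other genes of sugar use were read from lists around the pathway. Of 96 tested genes in 8 lists, 0 passed in edgeR, DESeq2 or limma-voom, and DESeq2 with the replicate block called Egln3 and Ldhd. In all CTC libraries, 4 lay below PT (Pcx, Gsk3a, Egln3 and Car9) and 3 above it (Gbe1, Ccnb1 and the low-count Pgam2), where 6.16% and 5.95% of all genes tested did, so these counts of 96 were no larger than the background. Pcx, pyruvate carboxylase, was at 46.3, 65.9 and 114 CPM in CTC and 164, 143 and 127 CPM in PT (-0.94), and Gsk3a, a kinase of glycogen synthase, had a value of -0.67. Gbe1, the glycogen branching enzyme, was higher in each CTC library (0.78), as was the mitotic cyclin Ccnb1 (0.48). The 9 listed NRF2 targets summed to between 761 and 881 CPM in CTC and between 569.6 and 635 CPM in PT, but no single target lay apart. The largest gaps between group means were in Txnrd1 (287 CPM in CTC, 161 in PT) and Me1 (150 and 100). Nqo1 had 45 counts in PT replicate 2 and at most 6 elsewhere, and was not tested. Of the 8 tested, 7 had values above 0 (median log2 ratio 0.31), where 7504 of all 13874 genes tested did. None of the 8 passed the test. Among these 7, Slc7a11 (0.70) rested on CTC replicate 3, with 90.3 CPM there and at most 35.9 CPM elsewhere. Its value was -1.22 with the replicate block. Genes of S phase and mitosis had a median of -0.25 with 6 of 10 below 0, and the 12 tested other isozymes a median of 0.30. Eno3, the enolase of muscle, reached 252 CPM in CTC replicate 1 and was between 2.46 and 72.5 CPM elsewhere. The regulator genes Hif1a and Myc overlapped between groups, with values of 0.40 and -0.16.

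Position on the chromosome was also compared, since neighbours of a gene can move with it. Tpi1, Eno2 and Gapdh lie together on chromosome 6 (Tpi1 at 124810586 to 124814296, GRCm38), where 18 of the 20 nearest tested genes around Tpi1 were below 0, with a median log2 fold change of -0.43 against -1.20 for Tpi1. The same neighbours deviated by -0.62 in CTC replicate 1 and by 0.24 in PT replicate 1, where Tpi1 deviated by -1.03 and 1.15. For Aldoa and Gpi1, on chromosome 7, the neighbours' medians were -0.32 and -0.23. They were -0.43 for Eno2, -0.16 for Aldoc, -0.030 for Ldha and 0.34 for Pfkp. Of 20 neighbours each, 19 were below 0 for Eno2, 15 for Aldoa, 14 for Gpi1, 13 for Aldoc, 10 for Ldha and 3 for Pfkp. Hk2, with a value of 0.064, lay among neighbours with a median of -0.57.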

How the data were processed

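RNA was sequenced from 6 libraries, 3 of CTC and 3 of PT, made from 100 ng total RNA each per the labels' protocols. The authors deposited raw read counts per Ensembl gene with another column, the gene length in bases. HISAT2 and the builds GRCm38 and mm10 are named per the submitters' processing notes. The sources used here do not state tool versions, the read counter, strand or the treatment of reads with several matches. Depth is given with the results. Counts of every pair of libraries differed beyond sampling noise (chi-square per degree of freedom at least 90.4).

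The main test was edgeR (version 4.0.16, R version 4.3.3) glmQLFit and glmQLFTest with TMM scaling, filterByExpr by group, Benjamini-Hochberg adjustment over all genes tested and a threshold of 0.05. Log2 CPM used a prior count of 2. DESeq2 (1.42.0), limma-voom (limma 3.58.1), other scalings and filters, a gene length correction (lowess span 0.4), library sizes without the members and libraries left out were alternatives. The fits were tested on simulated data. Members and lists were chosen with earlier results of these data known. Members are named in full where groups lay apart at an average log2 CPM of at least 3 or where they lead their step, and list genes (at most 3 each way) by the same separation.

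Equal replicate numbers stand for matched mice in the labels. Deviations from group means correlated at -0.015, 0.157 and 0.298 across all genes tested for replicates 1, 2 and 3. Across the members alone these correlations were 0.0029, -0.031 and -0.195. The main test did not use this pairing, and the replicate block was an alternative.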

Additional observations from a re-analysis of the deposited data

How the results depend on the processing

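No member passed under any alternative. The 7 members that lay below PT and Pfkfb3 kept their direction in all 21 alternatives. Their groups did not overlap, so leaving libraries out could hardly turn their sign. Pfkl, Pkm, Taldo1 and Slc16a1, whose groups overlapped, also kept their direction in all 21. The smallest adjusted p of any member was 0.0622 (Pfkp, DESeq2 with replicate block), where those of Pfkp ranged from 0.0622 to 1.00. Over all genes, edgeR with the replicate block called 0 (smallest adjusted p 0.199), DESeq2 called 43 higher and 48 lower in CTC, DESeq2 with replicate block 119 and 134, and edgeR without the filter 121 and 78. The log2 ratio of G6pdx changed sign to -0.014 with the replicate block, -0.0090 with RLE scaling, -0.012 with upper-quartile scaling, -0.0060 in DESeq2, -0.040 in DESeq2 with replicate block and -0.015 in limma-voom. Pdha1 was at -0.0033 with upper-quartile scaling, Hk1 at 0.0043 and Pdk1 at 0.011 without the filter, and Gapdh at -0.73 with copies summed. The replicate block changed no other member's direction. Without replicate 1 of both groups, log2 ratios with the opposite sign were Slc2a1 0.41, Hk1 0.14, Hk2 -0.26, Pfkfb2 -0.085, Pfkfb4 0.080, Pgk1 0.023, Pgam1 0.18, Eno1 0.045, Pdk1 0.42, Pdk2 0.50, Pdha1 -0.12, Pgls 0.041 and Tkt 0.17. Without replicate 2 of both groups, log2 ratios with the opposite sign were Hk2 -0.036, Pfkm -0.052, Gapdh -0.51, Pdk3 -0.0062, Pdha1 -0.016, Slc16a3 -0.36, G6pdx -0.24 and Pgd -0.036. Without replicate 3 of both groups, log2 ratios with the opposite sign were Ldhb -0.80, Slc16a3 -0.051 and G6pdx -0.013. Of the 32 members, 5 were then apart above and 7 below PT without mouse 1 (12.4% and 12.9% of all genes), 1 and 12 without mouse 2 (18.3% and 16.1%), and 2 and 13 without mouse 3 (25.2% and 22.9%). With 1 library left out in turn, members that changed sign ranged from -0.47 to 0.25 for Slc2a1, -0.20 to 0.19 for Hk1, -0.24 to 0.69 for Hk2, -0.12 to 0.33 for Pfkm, -0.094 to 0.60 for Pfkfb2, -0.64 to 0.12 for Pfkfb4, -0.45 to 2.78 for Gapdh, -0.25 to 0.054 for Pgam1, -0.72 to 0.019 for Eno1, -0.37 to 1.00 for Ldhb, -0.33 to 0.36 for Pdk1, -0.72 to 0.22 for Pdk2, -0.17 to 0.18 for Pdha1, -0.18 to 0.45 for Slc16a3, -0.23 to 0.19 for G6pdx and -0.75 to 0.0058 for Tkt. The members apart from PT numbered 1 to 3 higher, where 7.94% to 16.1% of all genes were, and 7 to 11 lower, where 7.58% to 14.3% were. Members apart with all libraries stay apart in a subset, so these counts could hardly fall. Differences of isozyme shares (percentage points) that changed sign ranged from -0.0202 to 0.0175 for Slc2a1, -12.3 to 5.6 for Hk1, -2.8 to 3.26 for Pfkfb2, -2.8 to 1.16 for Pdk1, -0.171 to 6.19 for Pdk3 and -0.162 to 0.0881 for Slc16a1. Without division by gene length the Pfkl share differed by 0.256 points, opposite in sign to the -9.66 points with it. With other listed isozymes added to the shares, an alternative chosen after seeing the data, the difference was -9.32 points for Eno1 and 0.418 for Pfkfb2, opposite in sign to the narrower shares. The cause of these changes was not tested. Ldhb in PT replicate 3, Slc16a3, Slc2a3 and Pdk4 rest on few or no counts, so depth limits their values.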
